A study of Phaffia rhodozyma with 29 samples.

Results

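Peaks of the transcription factor Sre1 that were listed for one epitope-tagged strain of Xanthophyllomyces dendrorhous, a red basidiomycete yeast also known as Phaffia rhodozyma, and had no counterpart in the list of another tagged strain are described here. The members were chosen by their measured positions: an entry of the CBS_FLAG-SRE1N peak list (the SRE1N list) was kept when it shared no base with any entry of the CBS_cyp61-_FLAG-SRE1 peak list (the cyp61- list). This left 389 of the 1156 entries of the SRE1N list (33.7%, 95% Wilson interval 31.0% to 36.4%), out of 1868 entries in both lists. Entries of the SRE1N list that overlapped each other were joined to 720 loci. Of these, 277 were SRE1N-only (38.5%, 35.0% to 42.1%) and 443 overlapped the cyp61- list. No locus mixed the 2 kinds of entry. Many loci hold 2 entries, so entries are not independent and intervals on shares of entries are too narrow.

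Sre1 belongs to the sterol regulatory element-binding proteins. These are basic helix-loop-helix leucine zipper proteins that are made as membrane proteins of the endoplasmic reticulum. When sterols are scarce, proteolysis frees the part that binds DNA, which enters the nucleus and turns on genes of sterol synthesis and uptake. CYP61 encodes the C-22 sterol desaturase, an enzyme late in the synthesis of ergosterol, the main sterol of fungi. X. dendrorhous is known for the carotenoid astaxanthin, and carotenoids and sterols share precursors from the mevalonate pathway.

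Both strains derive from the wild-type strain CBS 6938 and carry Sre1 fused to the FLAG epitope. CBS_FLAG-SRE1N has no further change named in its labels. The name of the other strain carries cyp61-, and labels of RNA samples of the series describe that locus as interrupted. No source used here says what sets the constructs SRE1N and SRE1 apart or which promoter drives them, so the construct and the CYP61 background cannot be told apart in any comparison of the lists. Cells were taken late in exponential growth, cross-linked with formaldehyde and assayed by ChIP-exo, in which an exonuclease trims immunoprecipitated DNA towards the bound protein. Each list stands for 3 replicates of its strain and was deposited without values per replicate. A peak therefore has no replicate error, and intervals on shares cover counting error only. ChIP-exo libraries made with IgG, for RNA polymerase II and from an sre1- strain were not analysed here, so whether a peak depends on Sre1 was not tested. Coordinates are those of the deposited lists, counted from 1 on the contigs of the assembly QXden1.PacBioOnly. The files used here place no gene on these coordinates, so loci are given by position, without gene names or sequence.

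The SRE1N list turned out to join 2 sets of peak calls. The difference between −log10 p and −log10 q of an entry fell on 2 separate curves, and each of the 436 loci with 2 entries had exactly one entry on each curve. The curves are named call set A (576 entries) and call set B (580 entries). No source used here says what distinguishes them. The fold enrichment and the p-value of an entry together also fix its summit coverage and its background coverage, if the fold is the ratio of the coverages with 1 read added to each and the p-value is a Poisson tail, as MACS2 computes them. A whole number of summit reads met both values for every entry, with a largest miss of 0.00195 in −log10 p. The commonest background, the baseline, was 30.8 reads in call set A and 20.9 reads in call set B.

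The cyp61- list split in the same way, into 562 entries with a baseline of 1.81 reads and 150 entries with a baseline of 5.86 reads. The baselines of the SRE1N list were 3.57 to 17.0 times those of the cyp61- list, depending on which call sets are paired. The weakest entry at a baseline had a fold of 1.70 (53 summit reads) in call set A and 1.74 (37 reads) in call set B of the SRE1N list. In the cyp61- list the weakest had folds of 2.84 (7 reads) and 2.48 (16 reads). At the baseline, peaks with folds between 1.70 and 2.48 were thus listed for the SRE1N strain and none for the cyp61- strain.

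**Figure D1:**
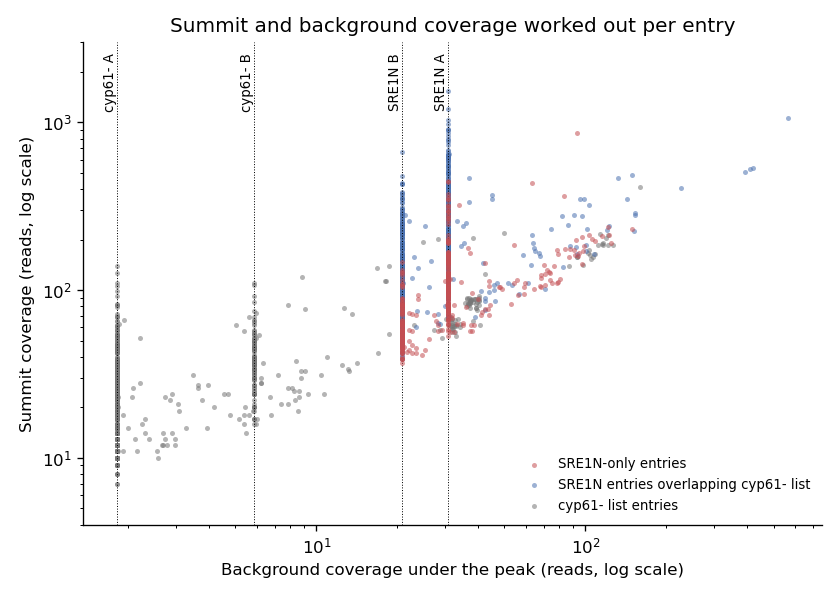
Summit coverage against background coverage, in reads on log axes, worked out for each entry from the deposited fold and p-value. Dotted lines mark the baselines of the call sets, 30.8 and 20.9 reads in the SRE1N list and 1.81 and 5.86 reads in the cyp61- list; SRE1N-only entries (red) lie low on the SRE1N baselines and along the lower edge of the cloud to their right.

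SRE1N-only entries were weak members of their list. In call set A their median fold enrichment was 3.17 (quartiles 2.19 and 4.49, n = 210), against 6.80 (4.42 and 11.0, n = 366) for entries that overlapped the cyp61- list. In call set B the medians were 2.47 (2.05 and 2.97, n = 179) and 4.57 (3.06 and 7.04, n = 401). The median −log10 q was 20.9 against 102 in call set A, and 6.91 against 35.1 in call set B. These folds and q-values are the authors' own, one per peak. They are given as a description, without a test, since strength helped decide whether a peak entered either list.

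**Figure D2:**
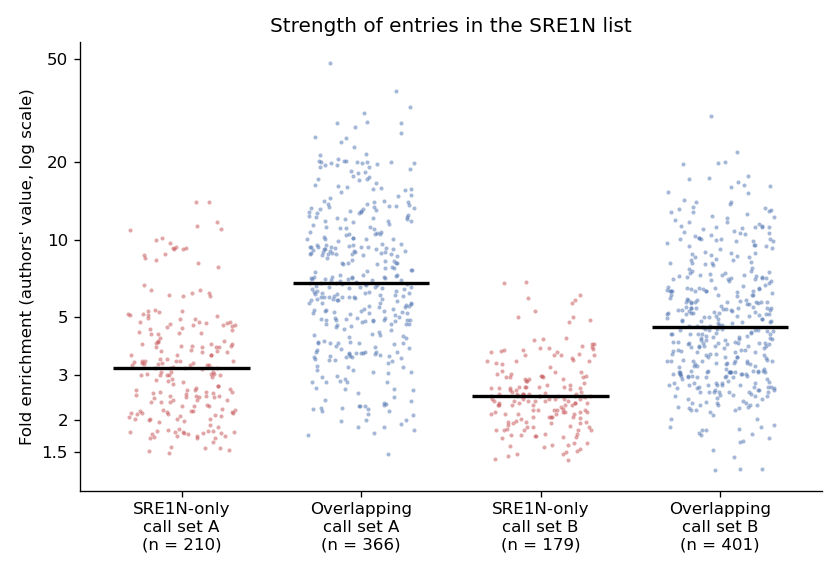
Fold enrichment of each entry of the SRE1N list on a log axis, by call set, with SRE1N-only entries left of the entries that overlap the cyp61- list. Bars are medians, 3.17 and 6.80 in call set A, and 2.47 and 4.57 in call set B. The ranges overlap widely, and the highest fold of an SRE1N-only entry is 14.0.

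The share of SRE1N-only entries fell steadily with strength. Each call set was ordered by fold and split into 5 bins of near equal size. In the weakest bin of call set A, with folds of 1.48 to 2.67, 84 of 116 entries were SRE1N-only (72.4%, Wilson interval 63.7% to 79.7%). In the strongest bin, with folds of 9.96 to 48.5, the share was 8 of 115 (6.96%, 3.57% to 13.1%). Call set B went the same way, with 79 of 116 entries (68.1%) in the weakest bin and 2 of 116 (1.72%, 0.474% to 6.07%) in the strongest. The strongest SRE1N-only entry ranked 56th of 576 in call set A and 107th of 580 in call set B, and the 100 strongest entries held 6 SRE1N-only entries in call set A and 0 in call set B.

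**Figure D3:**
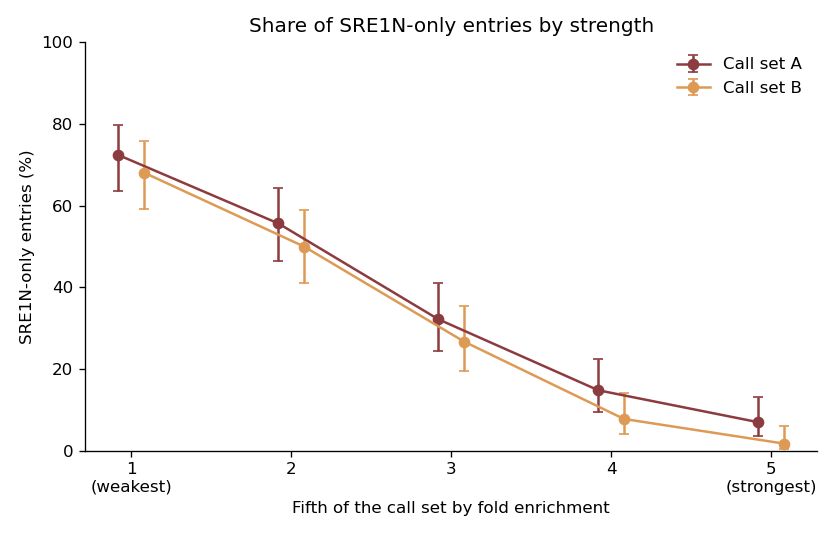
Percentage of entries that are SRE1N-only in each of 5 equal bins of a call set ordered by fold enrichment, from weakest to strongest, with 95% Wilson intervals. The share drops over each step in both call sets, from 72.4% to 6.96% in call set A and from 68.1% to 1.72% in call set B.

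The highest fold of a locus lay under 2.48, the lowest fold at a baseline in the cyp61- list, for 110 of 277 SRE1N-only loci (39.7%) and for 39 of 443 overlapping loci (8.80%). The other SRE1N-only loci reached or passed that fold. This floor holds at the baseline only. On a background raised above it, the cyp61- list held lower folds, down to 1.44 among its entries with no SRE1N overlap. The 65 SRE1N-only loci with a raised background in an entry had an upper quartile of 2.18. Most of them are thus among the 110, for which 2.48 is not the lowest fold that the cyp61- list held. At the upper end, 37 SRE1N-only loci (13.4%) and 280 overlapping loci (63.2%) had a fold of at least 5, and 7 SRE1N-only loci and 120 overlapping loci had a fold of at least 10. Folds of the 2 lists rest on different baselines, and the part of coverage in the absence of these loci from the cyp61- list was not tested.

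Folds of SRE1N-only entries reached 14.0 in call set A and 6.83 in call set B. A ranking by highest fold thus favours loci listed in call set A. In this ranking 7 SRE1N-only loci passed a fold of 10, each through its entry in call set A. The strongest spanned 476143 to 476697 on contig 8 and had a fold of 14.0 in call set A (446 summit reads over a background of 30.8) and 5.30 in call set B (115 reads over 20.9). Next was contig 7 from 113289 to 114303, with folds of 13.95 and 5.94 in call sets A and B. Both were found in both call sets, but at a lower fold in call set B. Contig 2 held 4 of the 7. Its loci from 1185745 to 1186231 and from 281870 to 282584 had folds of 11.7 and 11.3 in call set A, and each 3.93 in call set B. The locus from 1003250 to 1003701 had folds of 10.9 and 4.11. The locus on contig 2 from 2155341 to 2156031, with a fold of 10.1, was listed in call set A alone. The remaining one, on contig 3 from 1482274 to 1483103, had folds of 11.0 and 5.03. Each of the 7 stood on the baseline background in every entry.

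The next 3 by fold were contig 1 from 2124984 to 2125464 (9.96 in call set A and 6.08 in call set B), contig 6 from 1532480 to 1533152 (9.71 and 5.66) and contig 8 from 772982 to 773801 (9.37 and 3.56). For 3 of the 10 strongest loci the nearest cyp61- entry was within 5000 bases. It lay 884 bases from the locus at 476143 on contig 8, 3325 bases from that at 1185745 on contig 2 and 3624 bases from that at 2124984 on contig 1. The farthest among the 10 was the locus on contig 7, 43577 bases away.

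Fewer SRE1N-only loci than overlapping loci were found in both call sets. Both sets listed 112 of 277 SRE1N-only loci (40.4%, Wilson interval 34.8% to 46.3%) and 324 of 443 overlapping loci (73.1%, 68.8% to 77.1%). Call set A alone held 98 SRE1N-only loci (35.4%) and 42 overlapping loci (9.48%), and call set B alone held 67 (24.2%) and 77 (17.4%). Read the other way, 112 of the 436 loci in both call sets were SRE1N-only (25.7%), against 165 of the 284 in 1 call set (58.1%). The SRE1N-only loci in both call sets were the stronger ones, with a median highest fold of 3.85, against 2.48 for those in 1 call set. Where both sets listed a locus, the fold was higher in call set A in 100 of 112 SRE1N-only loci and in 311 of 324 overlapping loci, by a median ratio of 1.43 and 1.60.

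SRE1N-only peaks were also narrower than overlapping ones. The rule used the start and end of each entry, so width too is given as a description, without a test. The median span from start to end was 343 bases (quartiles 253 and 511) for SRE1N-only entries and 596 bases (389 and 873.5) for overlapping entries. The median spans were 346 bases in call set A and 336 bases in call set B for SRE1N-only entries, and 621 and 560 bases for overlapping entries. The length column of the files equalled the span in 450 of the 1156 entries and exceeded it in the rest. By that column the medians were 420 bases for SRE1N-only entries and 665 bases for overlapping entries. Width went with strength and with the number of call sets: SRE1N-only loci in both call sets had a median width of 445 bases, and those in 1 call set 285 bases.

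The widest SRE1N-only locus covered 1763 bases on contig 3 from 397506 to 399268, with folds of 9.30 and 5.85 in call sets A and B. A second SRE1N-only locus, from 395896 to 396867, lay beside it, with folds of 8.36 and 6.76. The other wide loci were contig 8 from 726905 to 728085 (1181 bases, a fold of 2.14 in call set A alone), contig 5 from 270941 to 272022 (1082 bases, 3.68 and 3.10), the locus at 113289 on contig 7 (1015 bases) and contig 3 from 1335652 to 1336652 (1001 bases, 8.11 and 4.89). Width alone did not mark the strong peaks, since the fold of the second widest lay under 2.15, the lower quartile of SRE1N-only loci.

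Few SRE1N-only loci lay within 1000 bases of a cyp61- peak. The median distance from edge to edge to the nearest cyp61- entry was 10492 bases (quartiles 4171 and 21365, range 193 to 102503), and every SRE1N-only locus had a cyp61- entry on its contig. In all, 6 of the 277 loci lay within 500 bases (2.17%) and 18 within 1000 bases (6.50%). Within 5000 bases lay 81 loci (29.2%) and within 10000 bases 135 loci (48.7%), while 20 loci (7.22%) were more than 50000 bases away. Loci in both call sets had a median distance of 13585 bases, against 9032 bases for those in 1 call set. The nearest cyp61- locus was itself one that overlapped the SRE1N list for 229 of the 277 (82.7%), near the share of such loci among all cyp61- loci on the same contigs, 438 of 531 (82.5%).

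**Figure D4:**
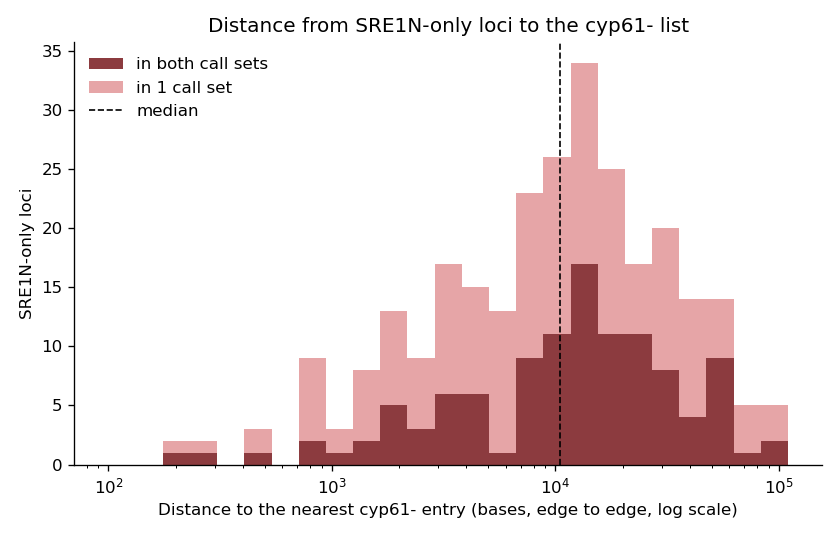
Number of SRE1N-only loci by distance in bases to the nearest cyp61- entry, on a log axis, with loci in both call sets (dark) below loci in 1 call set (light). The dashed line is the median, 10492 bases; 18 of 277 loci lie within 1000 bases.

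The rule left a clear gap at its edge. The SRE1N-only locus nearest to the cyp61- list, on contig 16 from 11359 to 11941, was 193 bases away from it, with folds of 2.06 and 1.74 in call sets A and B. The next were contig 4 from 1855907 to 1856414 (211 bases, a fold of 1.90 in call set B alone), contig 11 from 26774 to 27361 (256 bases, 2.12 and 1.48), contig 10 from 785462 to 785775 (278 bases, 2.55 in call set A alone) and contig 2 from 1710220 to 1710474 (422 bases, 2.01 and 1.63). All 5 were weak and stood on a raised background. Just outside the rule, the entries with the smallest overlap shared 109 bases (contig 11 from 7343 to 7910, a fold of 1.43), 120 bases (contig 4 from 1198014 to 1198183, 2.19) and 123 bases (contig 9 from 787528 to 787754, 3.42) with the cyp61- list.

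Of the 5 loci farthest from the cyp61- list, 3 had a fold under 2.83, the median of SRE1N-only loci. On contig 2 the locus from 1605923 to 1606131 was 102503 bases away, with a fold of 1.71 in call set A alone. Contig 0 held the next 3, from 1444637 to 1444908 (102268 bases, a fold of 2.60 in call set B alone), from 1825973 to 1826678 (100900 bases, 2.47 in call set B alone) and from 1384690 to 1385215 (93651 bases, 6.19 and 2.47 in call sets A and B). Last came contig 5 from 1529952 to 1530349 (87282 bases, 3.58 and 2.10). A shape-scored peak, described below, lay at all 3 loci on contig 0.

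A raised background, here more than 1.1 times the baseline of the call set, was more frequent under SRE1N-only entries. It stood under 91 of 389 SRE1N-only entries (23.4%, Wilson interval 19.5% to 27.8%) and 74 of 767 overlapping entries (9.65%, 7.76% to 11.9%). In call set A the shares were 22.9% and 10.1%, and in call set B 24.0% and 9.23%. These were mainly weak peaks. In the weakest bin of call set A, 41 of 84 SRE1N-only entries and 62 of all 116 entries had a raised background. In that of call set B the counts were 35 of 79 and 54 of 116. Within these bins SRE1N-only entries thus had it no more often than the rest. In the second bin they had it less often, 2 of 64 against 10 of all 115 entries in call set A and 3 of 58 against 11 of 116 in call set B. In the middle bin they had it more often, 3 of 37 against 5 of 115 in call set A and 4 of 31 against 10 of 116 in call set B. Counts were small in the fourth bin (2 of 17 against 7 of 115, and 0 of 9 against 2 of 116). They were also small in the strongest bin (0 of 8 against 1 of 115, and 1 of 2 against 3 of 116). The direction thus differed among bins. The 65 SRE1N-only loci with a raised background had a median highest fold of 1.95, against 3.16 for the 212 without, and a shorter median distance to the cyp61- list, 8458 against 12556 bases. Its part in the placing of these loci was not tested.

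The locus on contig 3 from 1412254 to 1412620 also stood on a raised background. It had the highest −log10 q of any SRE1N-only locus, 501 in call set A, for which it was singled out after its values were seen, and it also had the highest shape score, described below. Its summit held 865 reads over a background of 93.2 in call set A, a fold of 9.19, and 438 reads over 63.3 in call set B, a fold of 6.83. The nearest cyp61- entry was 964 bases away.

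SRE1N-only loci were spread over the genome much as the rest of the list. They lay on 15 of the 22 contigs for which the count tables of the series list genes. On the 11 contigs with at least 100 genes, 265 of 702 loci were SRE1N-only (37.7%), with shares per contig from 28.1% (32 of 114 on contig 3) to 51.1% (24 of 47 on contig 7). The Wilson interval of contig 3, 20.6% to 36.9%, ended just under those of contig 7, 37.2% to 64.7%, and of contig 2, 37.1% to 60.2%. Every other pair of these contigs had intervals that overlapped. Set against the number of genes listed, the 11 contigs held 3.24 (contig 0) to 5.13 (contig 7) SRE1N-only loci per 100 genes.

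Contig 7 differed in strength as well. Its SRE1N-only loci had a median highest fold of 2.14 and its overlapping loci 3.56, the lowest medians of both kinds among these 11 contigs, and 9 of its 24 SRE1N-only loci and 8 of its 23 overlapping loci stood on a raised background. On the 11 contigs with fewer than 100 genes, which hold 57 genes in all, 12 of 18 loci were SRE1N-only, and all 18 had a raised background. These 12 were on contigs 11, 15, 16 and 19. Gene counts were used because contig lengths are not given in the peak lists.

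**Figure D5:**
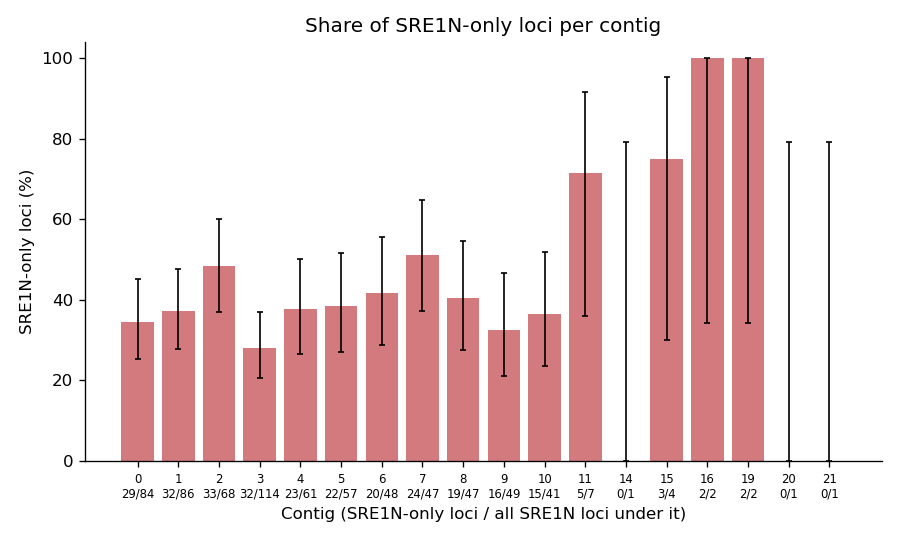
Percentage of the loci of the SRE1N list on each contig that are SRE1N-only, with 95% Wilson intervals, and the counts under each contig number. Contigs 0 to 10 lie between 28.1% and 51.1%, and contigs 11, 14 to 16 and 19 to 21 rest on 1 to 7 loci each; contigs with no SRE1N locus are not drawn.

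Another SRE1N-only locus lay within 1000 bases of 10 of the 277 SRE1N-only loci (3.61%) and within 5000 bases of 42 (15.2%). The nearest locus of the same list was an overlapping one for 178 of the 277 (64.3%), near the share of overlapping loci in the list, 443 of 720 (61.5%).

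A second peak list of the CBS_FLAG-SRE1N strain, with a shape score per peak and limited by its title to differentially expressed genes, was compared with the first. It was made from the same strain and replicates and is no independent replicate. Of its 552 peaks, 107 overlapped an SRE1N-only entry, 239 an entry that overlaps the cyp61- list and 206 no entry. Of the SRE1N-only loci, 105 of 277 had a shape-scored peak (37.9%, Wilson interval 32.4% to 43.7%), against 229 of 443 overlapping loci (51.7%, 47.0% to 56.3%). Among loci in both call sets the shares were close, at 57 of 112 (50.9%) and 175 of 324 (54.0%). Among loci in 1 call set they were 48 of 165 (29.1%) and 54 of 119 (45.4%). SRE1N-only loci with a shape-scored peak had a median highest fold of 3.65, against 2.45 for those without.

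Shape scores were lower at SRE1N-only loci, with a median of 8.19 (range 4.00 to 30.0, n = 105), against 14.9 (5.29 to 44.2, n = 229) at overlapping loci. The highest belonged to the locus at 1412254 on contig 3 (30.0), followed by the loci at 1532480 on contig 6 (24.4), at 395896 on contig 3 (22.0), at 113289 on contig 7 (20.9), at 2155341 on contig 2 (20.5) and at 397506 on contig 3 (20.3). The remaining 4 of the first 10 were contig 10 from 718329 to 718662 (17.5), contig 1 from 1094278 to 1094792 (16.2), the locus at 1335652 on contig 3 (14.7) and contig 10 from 922046 to 922372 (14.4). Of the 10 loci strongest by fold, 6 had a shape-scored peak. The strongest of all, at 476143 on contig 8, had none, nor had those at 1185745 and 281870 on contig 2 and at 2124984 on contig 1.

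For 5 of the 277 SRE1N-only loci (1.81%) the shape-scored list of the cyp61- strain did hold a peak, against 43 of 443 overlapping loci (9.71%). Most loci of both kinds thus had none there. The absence of these 5 from the cyp61- strain holds in 1 of its 2 lists. The shape-scored list of that strain is likewise limited by its title to differentially expressed genes. It has 51 peaks, of which 46 overlapped an entry of the cyp61- list. The remaining 5 all fell on SRE1N-only loci. They were the locus at 113289 on contig 7 (cyp61- shape score 5.35), contig 10 from 411397 to 411767 (2.34), contig 8 from 376297 to 376754 (2.61), contig 0 from 959662 to 960111 (3.15) and contig 1 from 1107561 to 1107851 (3.80). In the SRE1N strain their shape scores were 20.9, 10.5, 12.8, 13.0 and 11.9, in the same order. The locus on contig 7, second by fold among all SRE1N-only loci, is thus not one that is missing from the cyp61- strain in every list. Without these 5 loci, 381 entries remained.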

How the data were processed

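Peak lists from ChIP-exo of 2 tagged strains, each standing for 3 replicates per the labels, were used as deposited. Per the file headers, the authors gave each peak its contig, start, end and length, its fold enrichment (a ratio of coverage to background) and −log10 of its p-value and q-value. A second deposited list per strain scores peaks by shape and adds a p-value to each score. The submitters' processing notes name MACS2, Bowtie2 2.3.5.1, SAMtools, deepTools and bedtools without saying what each did. No source used here gives the control libraries, cutoffs, read totals or the handling of replicates. Of the RNA-seq count tables, the number of genes per contig alone was read. No genome was used.

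Overlap meant at least 1 shared base. Call sets were separated by the curves of −log10 p minus −log10 q, and 1 entry per list was moved by its background, which equalled the baseline of the other call set within 0.02 reads. Shares have 95% Wilson intervals. No test was run, since a pooled list has no replicates and the rule used the peaks themselves. The recovery of summits and backgrounds, the separation of call sets and the distances were checked on simulated data. Those data were made with the same formulas, so the check does not bear on whether MACS2 used them. Loci were named by rule: the 10 of highest fold, the 5 widest, the 5 farthest from and the 5 nearest to the cyp61- list, and the 10 of highest shape score. Members, lists and rules were chosen with earlier results of these data known. Python 3.11.15, pandas 2.3.3, numpy 2.4.6 and scipy 1.17.1 were used.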

Additional observations from a re-analysis of the deposited data

How the results depend on the processing

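The count of SRE1N-only entries, 389 of 1156 (33.7%), was 389, 380 and 365 when entries within 100, 500 and 1000 bases also counted as shared, 460 when at least 50% of an entry had to be covered, and 277 as loci. It was 320 of 1073 (29.8%) with −log10 q of at least 5 in the SRE1N list and 381 of 1073 (35.5%) with that minimum in both lists. It was 221 (24.3% of the entries kept) with −log10 q of at least 10, 157 (19.7%) with a fold of at least 3 in the SRE1N list or in both lists, and 126 (17.7%) with the SRE1N list cut to the 712 strongest entries by q. With a fold of at least 3, the median fold was 3.93, the median width 426 bases, the median distance 14322 bases, the share with a shape-scored peak 59.9% and the share of SRE1N-only entries on contig 7 25.8%, against 49.3% of all its entries. The median fold was 2.99 both with −log10 q of at least 5 and on the baseline background, where the share with a shape-scored peak was 49.3%. Alternatives on call sets and background were chosen after seeing the data. The count was 224 of 872 (25.7%) among entries of loci in both call sets and 298 of 991 (30.1%) on the baseline background. Of all 1156 entries, 401 (34.7%) and 918 (79.4%) had no overlap with cyp61- call set A or B taken alone. A count was taken as close to the main one within 1.5 times, and a median or share within the 95% interval of the main value. By this measure 25 alternative values stayed close and 14 moved. No paired analysis was possible because each list was deposited as 1 table for all replicates, which also prevents leaving out a replicate.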

Other observations

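Of the SRE1N entries 33.7% shared no base with the cyp61- list, and in the opposite direction 149 of 712 entries of the cyp61- list (20.9%, Wilson interval 18.1% to 24.1%) shared none with the SRE1N list. These cyp61-only entries were weak as well, with a median fold of 2.39, against 7.21 for the cyp61- entries that overlapped the SRE1N list, and their median span was 283 bases. Of the 149, 52 lay on the contigs with fewer than 100 genes, all on a raised background. The 2 shares come from lists of unlike length. With the SRE1N list cut to its 712 strongest entries by q, its share was 17.7%.

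The smallest contigs set the lists apart. The 11 contigs with fewer than 100 genes held 29 entries of the SRE1N list, on 7 of them, and 62 entries of the cyp61- list, on all 11. Every one of these 91 entries stood on a raised background. On 4 of the contigs, 12, 13, 17 and 18, the SRE1N list had 0 entries and the cyp61- list had 37. These 37 had a median background of 37.3 reads, far above the cyp61- baselines, and their highest fold was 2.34.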
